A study of Homo sapiens with 14 samples.

Results

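Replicative senescence, the arrest that cultured cells reach after many passages, was compared between 2 isolates of IMR90, primary human fetal lung fibroblasts. The isolates are named I79 and I10, and each was sampled young (proliferating) and old (passaged into senescence). The quantity described here is the difference of the 2 within-isolate changes: the log2 ratio of old to young in I79 minus that in I10. A positive difference means that a transcript rose more, or fell less, in I79. The 4 groups took in 8 of the 14 samples of the series, since the titles list 2 replicates for each group. The deposited data gave 1 table per group, however, and whether a table pools its replicates or holds 1 of them is not stated. Each table was therefore read as a single value of the authors, with no SD, no n and no test. No group had a treatment or a genetic change in its labels, and the labels do not give passage numbers or culture dates, so isolate, passage and culture cannot be told apart.

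Senescent fibroblasts stop dividing, chiefly through the CDK inhibitors p21 and p16, which hold the retinoblastoma protein active and keep E2F and mitotic genes silent. They also secrete cytokines, proteases and growth factors, the senescence-associated secretory phenotype, much of it driven by the transcription factor NF-kappaB. Matrix, contractile and lysosomal genes are known to shift as well. Isolates of these cells may reach this state after different histories, so the comparison asks which parts of the change are shared and which are not.

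For I79 the young table held 14991385 estimated counts and the old one 19832964, and for I10 they held 18246187 and 20632959. Of 10 fibroblast markers, all had a mean of at least 25 counts, and their summed level lay between 21342 and 28393 CPM (counts per 1e6, scaled by TMM, a trimmed mean of ratios). Among epithelial, endothelial and immune markers, KRT5, KRT14, ESRP1, CDH5, CD3E and MS4A1 had no count in any table, and PTPRC had at most 4. Others were expressed. TEK, an endothelial marker, lay between 66.0 and 214 CPM and made up most of the endothelial sum. KDR had 81 counts in I79 old and 1 in I10 old, and VWF had at most 52. The epithelial markers KRT19 and KRT7 reached 140 and 47 counts. Some summed levels of other lineages were higher in old cells, from 66.4 to 222 CPM over the tables for 5 endothelial markers and from 21.7 to 159 CPM for 6 immune ones, of which CD68 alone had a mean of at least 25 counts. All 6 pericyte and smooth muscle markers had a mean of at least 25 counts, and their summed level was 321 and 357 CPM in young and old I79 and 283 and 403 CPM in I10. The part of these markers in the differences was not tested. Among 13079 genes with a mean of at least 25 counts, of 59860 in the tables, the changes of the 2 isolates correlated with a Pearson r of 0.79. This is a description across genes, which share the 4 libraries. A gene was called isolate-dependent when the difference was past 0.6 on the log2 scale, the size used in the study, and its 95% counting interval left out 0. Counting intervals cover counting error only.

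By this rule 1707 genes (13.1%) were isolate-dependent. The change was higher in I79 for 917 genes (7.01%) and lower for 790 (6.04%), so that 53.7% of them lay on the higher side. This split depended on scaling, since 66.9% lay there when the tables were scaled by their totals, which moved the median difference of all genes from 0.00 to 0.09. It also depended on the filter. With a mean of at least 100 counts, 570 genes were higher and 574 lower. For 614 of the 1707 genes both isolates passed 0.6 in the same direction, and 481 of these 614 had the larger change in I79. For 839 genes only 1 isolate passed 0.6. Of these, 286 were up in I79 alone, 231 down in I79 alone, 190 down in I10 alone and 132 up in I10 alone. In 75 genes (0.573% of those tested) the isolates passed 0.6 in opposite directions, 47 of them up in I79 and down in I10. The remaining 179 genes, 90 on the higher side and 89 on the lower, passed 0.6 in neither isolate. Over all genes the SD of the change was 1.10 in I79 and 0.98 in I10.

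**Figure D1:**
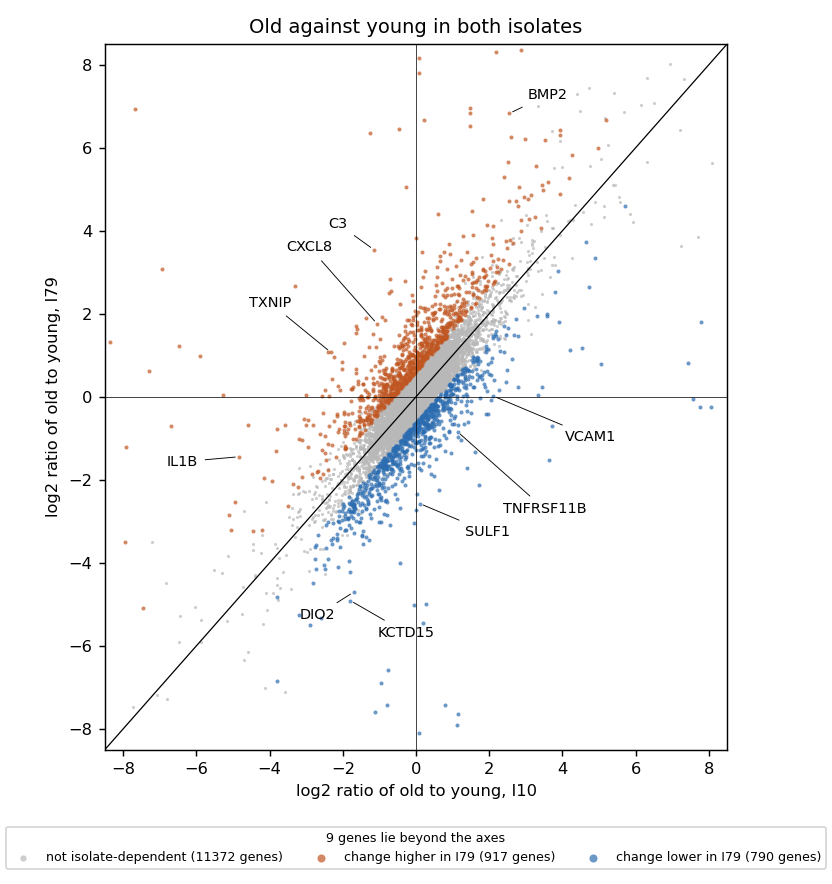
Each point is 1 of 13079 genes, with the log2 ratio of old to young in I10 on the x axis and in I79 on the y axis. Points on the diagonal changed alike, orange points (917) changed more positively in I79, blue points (790) more negatively, and 9 genes lie beyond the axes.

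The scatter of old to young ratios shows most genes close to the diagonal, with C3, TXNIP and CXCL8 in the corner where I79 rose and I10 fell, and TNFRSF11B in the opposite corner. How much of such a spread replicate cultures give could be measured in this series only in the IMR90 libraries with knockdown of HMGB2 (HMGB2 KD) and their wild-type controls (WT), which were deeper, counted in another way and have 2 replicates each. There the same arithmetic, the KD to WT ratio of replicate 1 minus that of replicate 2, passed 0.6 with an interval without 0 in 1260 of 12753 genes (9.88%). The share in the isolates, 13.1%, was 1.32 times as large. At larger sizes the shares stood farther apart. Past 1 they were 6.07% in the isolates and 3.58% in the replicates, past 1.5 they were 2.78% and 1.08%, and past 2 they were 1.40% and 0.345%. Without genes that had a transcript at 0, described below, the isolate shares were smaller, 5.42% past 1 and 0.974% past 2. The part of depth and of the way of counting in these gaps was not tested. The SD of the difference was 0.69 in the isolates and 0.44 in the replicates, while the median size was 0.23 and 0.24. Of the isolate-dependent genes measured in both, 14.6% also passed in the replicate arithmetic, against 7.61% of the other genes.

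**Figure D2:**
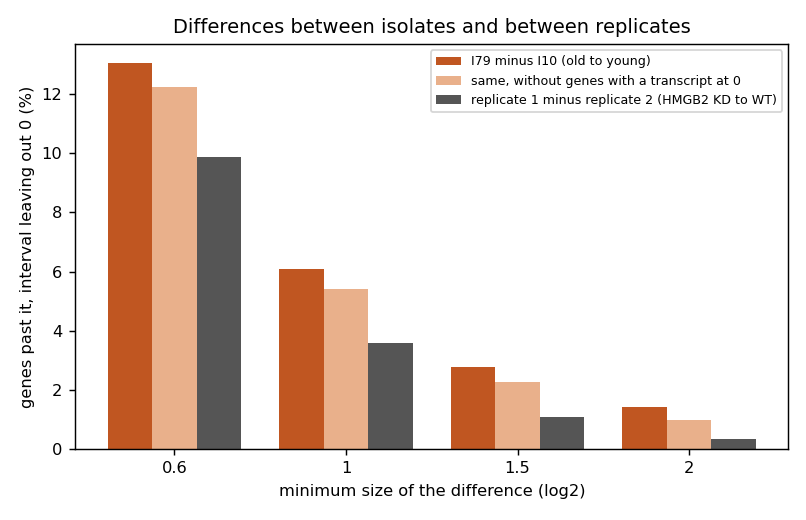
Bars give the share of genes (%, y axis) whose difference passed the size on the x axis (log2) with a counting interval without 0, for the isolates (dark orange), the isolates without genes that had a transcript at 0 (light orange) and the replicate arithmetic of WT and HMGB2 KD (grey). At 0.6 the isolates had 13.1% and the replicates 9.88%, and at 2 they had 1.40% and 0.345%.

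Many of the widest differences were in genes with a transcript at 0 in some tables. The tables are estimates per transcript, which can divide reads between similar transcripts in other ways from table to table, and in 548 genes (4.19%) a transcript with at least 25% of the gene's reads stood under 0.5 reads in at least 1 table and reached 50 in another. Of these 548 genes, 174 were isolate-dependent (31.8%), against 12.2% of the other genes, and they made up 61 of the 183 genes called past 2. Of the 24 protein-coding genes with intervals farthest from 0, 14 had such a transcript. On the higher side these were PEDS1-UBE2V1, GJC1, INPP5D, ENSG00000260537 and ABCC4, and on the lower side ENSG00000267303, EFNB2, H4C15, PPARA, MAGED4, ELFN2, ENSG00000268173, FHL1 and EDNRB. The other 10 were C3, EMB, LMBRD1, CFAP298-TCP10L, MCM4, TXNIP and BMP2 on the higher side, and GPC5, ENSG00000284989 and DIO2 on the lower. MCM4, a subunit of the replicative helicase, had 21 counts in young and 15 in old I79, and 164 in young and 1 in old I10. Its mean in the WT and HMGB2 KD libraries was 1269 counts, and it was not read further. LMBRD1, with at most 47 counts in a table, had a mean of 1399 counts in those libraries and was set aside too. CFAP298-TCP10L, with at most 49 counts in a table, had a replicate arithmetic of 6.35 at a mean of 5.25 counts. ZBTB34 and TDRP had 0 in 1 table and at least 100 counts in each of the others. ZBTB34 had 358 and 304 counts in young and old I79 and 422 and 0 in I10, and TDRP had 0 and 327 in I79 and 100 and 206 in I10. For this reason the genes described next are the highest and lowest ranked of 9962 protein-coding genes with a mean of at least 100 counts and no such transcript, a ranking chosen after these values were seen. Their differences describe the ranking, since they were chosen by it.

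C3, the central component of complement, stood at 6.8 CPM in I79 young and 79.9 CPM in I79 old, and at 8.66 CPM in I10 young and 3.87 CPM in I10 old. The young tables were close, while the old tables differed by 4.36 on the log2 scale. C3 lies on chromosome 19 from 6677715 to 6730573 of GRCh37, and its difference was 4.71 (95% counting interval 4.21 to 5.20). The gene of SERPING1, the inhibitor of the first complement component, went the same way, from 22.8 to 168 CPM in I79, against 40.9 to 61.1 CPM for I10, a difference of 2.30 (2.09 to 2.51). TXNIP (chromosome 1, 145438490 to 145442635), an inhibitor of thioredoxin that follows glucose supply, stood at 74.4 CPM in I79 young and 157 CPM in I79 old, and at 55.8 CPM in I10 young and 11.1 CPM in I10 old. Its changes had opposite signs, 1.08 in I79 and -2.33 in I10. Its difference was 3.41 (3.17 to 3.65).

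BMP2, a bone morphogenetic protein and NF-kappaB target, was nearly silent in both young tables, with 9 counts in I79 and 20 in I10. It reached 69.2 CPM in I79 old and 6.24 CPM in I10 old, and the difference was 4.28 (3.13 to 5.42). CA9, a carbonic anhydrase induced by hypoxia, reached 53.4 CPM in I79 old and 20.1 CPM in I10 old from 1.03 and 3.50 CPM. The receptor tyrosine kinase gene KIT reached 26.8 and 10.3 CPM from 0.321 and 1.67 CPM. In these 3 genes both isolates rose, and I79 rose further. The replicate arithmetic of KIT was 1.01, and its I79 young table held 5 counts, so the interval of its difference of 3.64 ran from 2.32 to 4.97. From TPM-based counts the difference was 2.45 for KIT and 2.47 for CA9, against 3.14 for CA9 from the estimated counts. APOE, an apolipoprotein, went from 5.33 to 20.2 CPM in I79, against 4.75 to 2.49 CPM for I10. GPC4, a cell-surface proteoglycan, went from 2.37 to 17.2 CPM in I79, against 3.18 to 1.93 CPM for I10. PTGIS, the prostacyclin synthase, went from 33.4 to 53.2 CPM in I79, against 49.6 to 15.8 CPM for I10. RARRES1, a retinoid-responsive gene, differed through its loss in I10, from 30.1 to 3.59 CPM, while I79 went from 27.1 to 18.6 CPM.

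On the lower side, DIO2, the deiodinase that activates thyroid hormone (chromosome 14, 80663869 to 80854100), stood at 87.5 CPM in I79 young and 83.4 CPM in I10 young. It was at 3.32 CPM in I79 old and 25.5 CPM in I10 old, a difference of -3.00 (-3.40 to -2.60). SULF1, which trims sulfate from heparan sulfate and so alters growth factor signalling, went from 47.2 to 7.90 CPM in I79, against 59.2 to 63.7 CPM for I10. ITGA11, a collagen-binding integrin, went from 56.5 to 11.2 CPM in I79, against 51.0 to 51.9 CPM for I10. Both fell in I79 alone, with differences of -2.68 and -2.36. The replicate arithmetic of SULF1 was 0.94, that of ITGA11 -0.37. The repressor KCTD15 went from 26.9 to 0.871 CPM in I79, against 23.5 to 6.74 CPM for I10. PRDM6, a smooth muscle transcription factor, went from 40.5 to 0.327 CPM and from 43.7 to 3.09 CPM.

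VCAM1, an adhesion molecule for leukocytes, differed through I10, where it went from 60.5 to 259.9 CPM, against 94.5 and 95.9 CPM in I79. TNFRSF11B, which encodes osteoprotegerin, moved in opposite directions. It went from 194 to 108 CPM in I79, against 205 to 451 CPM for I10, a difference of -1.98 (-2.08 to -1.88). OLR1, a receptor for oxidised LDL, rose in both isolates, to 15.4 CPM in I79 and 53 CPM in I10. ATP8B1 and NSG1 differed mainly in the young tables, by 2.55 and 1.91 between the isolates. The difference of ATP8B1 was -3.07, and -1.79 from TPM-based counts. Of the 40 genes ranked in this way, 38 differed by more than 0.6 between the old tables, 31 differed by no more than 0.6 between the young ones, and 4 passed 0.6 in the replicate arithmetic.

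**Figure D3:**
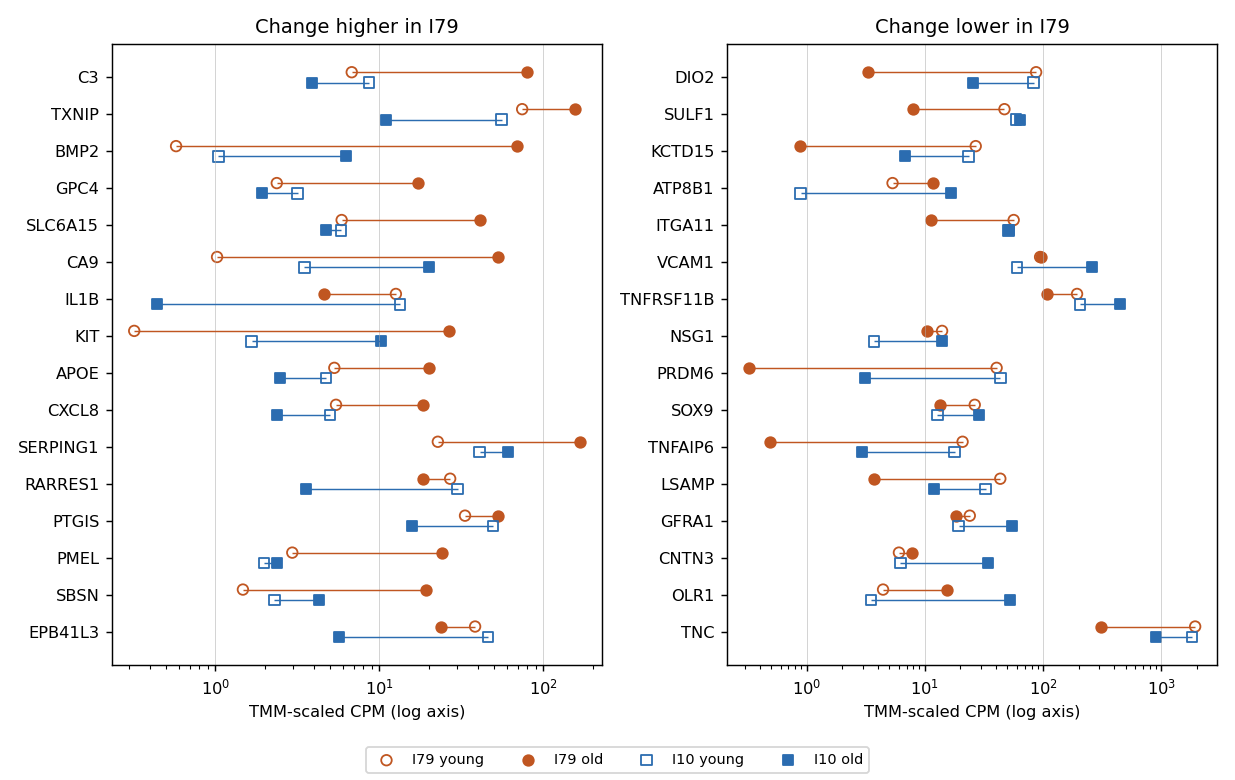
TMM-scaled CPM (log axis) of the first 16 genes on each side of the ranking, with I79 in orange circles, I10 in blue squares, open symbols for young and filled symbols for old. Lines join young and old of 1 isolate; in C3, both young values lie between 6.8 and 8.66 CPM and the old values at 79.9 and 3.87 CPM.

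The difference equals the I79 to I10 ratio of the old tables minus that of the young tables. Over all 13079 genes the old tables differed by more than 0.6 in 1794 genes (13.7%) and the young tables in 621 (4.75%), with a median size of 0.21 and 0.11. Among the 1707 isolate-dependent genes, 1013 (59.3%) passed 0.6 in the old tables only, 151 (8.85%) in the young tables only, 146 (8.55%) in both and 397 (23.3%) in neither. The split is arithmetic and carries no test, and the old tables enter the rule.

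**Figure D4:**
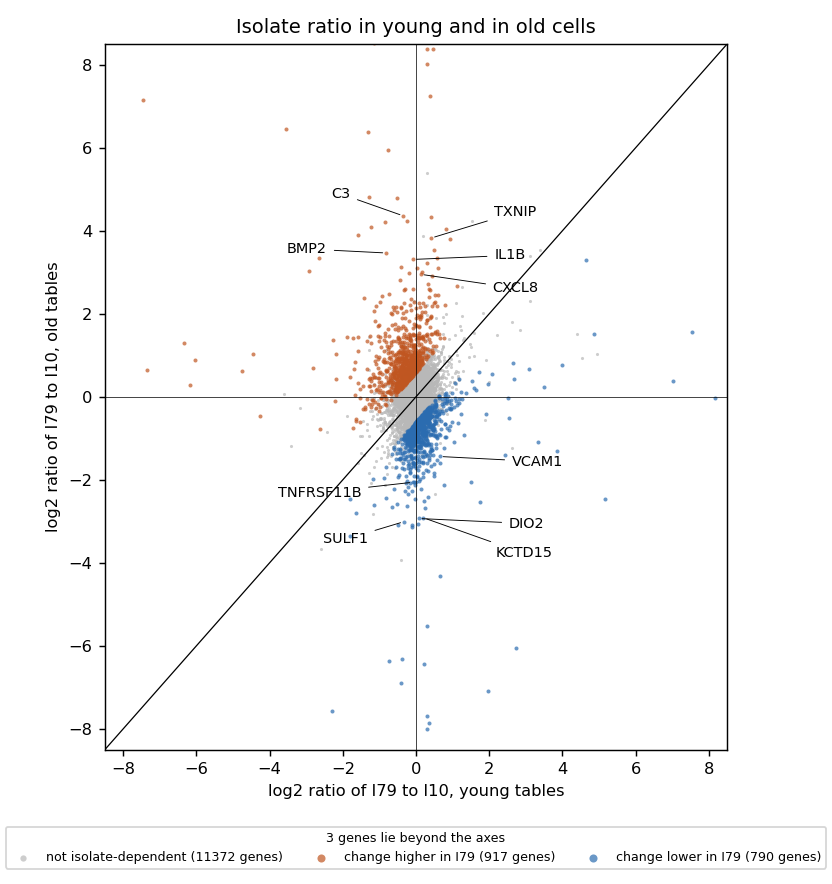
Each point is a gene, with the log2 ratio of I79 to I10 in the young tables on the x axis and in the old tables on the y axis, coloured as in the scatter of the changes. Isolate-dependent genes spread along the y axis, since 59.3% of them passed 0.6 in the old tables only; 3 genes lie beyond the axes.

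Inflammatory cytokines and NF-kappaB targets had the largest median difference of the 32 gene lists. Of 34 genes, 23 passed the filter on low counts. Of these 16 were higher and 2 lower in I79 by the rule, against 7.01% and 6.04% of all genes, and the median difference was 1.02, against 0.00 for all genes. The median change was 0.92 in I79 and -0.10 in I10. CXCL8, a chemokine for neutrophils, went from 5.45 to 18.6 CPM in I79, against 5.01 to 2.38 CPM for I10, with an interval of the difference from 2.21 to 3.45. PTGS2, the inducible cyclooxygenase, went from 4.94 to 11.4 CPM in I79, against 6.47 to 3.04 CPM for I10. IL6 went from 3.40 to 9.37 CPM in I79, against 5.43 to 4.42 CPM for I10. In the old tables I79 stood above I10 for all 3 genes. The log2 ratio of I79 to I10 in the young tables was 0.12 for CXCL8 and -0.39 for PTGS2, and for IL6 it was -0.67, past 0.6, against 1.08 in the old tables.

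IL1B and IL1A, the interleukin-1 cytokines, were lower in old than in young cells of both isolates, and differed through a deeper loss in I10. IL1B went from 12.6 to 4.63 CPM in I79, against 13.4 to 0.442 CPM for I10, and IL1A from 2.89 to 1.80 CPM and from 3.60 to 0.276 CPM. The difference of IL1B was 3.39, and 2.69 from TPM-based counts. The feedback inhibitors TNFAIP3 (A20) and NFKBIA (IkappaB-alpha) went with the others. TNFAIP3 went from 19.95 to 55.1 CPM in I79, against 18.8 to 20.6 CPM for I10, a difference of 1.33, and NFKBIA had a difference of 1.02. SOD2, the mitochondrial superoxide dismutase, reached 1084 CPM in I79 old and 589 CPM in I10 old from 329 and 336 CPM, and the adhesion molecule ICAM1 had a difference of 0.99. The exceptions within the list were TNFAIP6 (-2.73), a hyaluronan-binding protein that fell in both isolates, and IL11 (-0.66). The adhesion molecule VCAM1, described above, is not on the list and had a difference of -2.08 (-2.22 to -1.95). CCL2 (0.20), CXCL12 (-0.24), CSF1, NFKB2 and CXCL6 were not isolate-dependent. RELB, called higher, had a transcript at 0, with 0 counts in I79 young. Members beyond BMP2, IL1B, CXCL8 and TNFAIP6 were named after their values were seen.

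Replicates of this series differed in these genes too. In the WT libraries replicate 1 stood above replicate 2 by a median of 0.45 over the list and by 1.25 for CXCL8. In HMGB2 KD the gaps were 0.70 and 1.72. The replicate arithmetic, in which a shared gap cancels, had a median of 0.23, and 3 of the 23 genes passed the rule. The old tables of the isolates differed by a median of 0.89 over the list and the young tables by -0.10. Levels differed between the sets as well. The WT and HMGB2 KD libraries, which are deeper, averaged 32245.5 counts of CXCL8, against at most 341 in an isolate table. They averaged 16412.5 counts of PTGS2, against at most 210, and 5674.5 of IL1B, against at most 257. For BMP2 the mean was 2689.5, against at most 1271. The part of culture-to-culture spread in the difference was not tested, since the isolates have 1 table each.

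The promoters of this list were read for short motifs, in windows from 250 bases before to 50 after the gene start (RefSeq, GRCh38.p14), on both strands. Promoters were found for 18 of the 23 genes. The NF-kappaB consensus was held by 7 of them (38.9%), against 11.3% of all 35116 promoters, and the AP-1 consensus TGANTCA by 4 (22.2%), against 7.71%. The hypoxia core ACGTG was held by 4 (22.2%, against 21.4%), the CHR element TTTGAA of cell cycle genes by 1 (5.56%, against 15.2%) and the CArG box by none (against 1.29%). NF-kappaB targets were chosen for the list as such, so the first share describes the list. The sites of 4 genes with an isolate-dependent difference are shown with the motif in capitals, read on the gene's strand.
IL6 (chr7:22727117-22727146, + strand): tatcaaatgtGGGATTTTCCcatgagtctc
CXCL1 (chr4:73869304-73869333, + strand): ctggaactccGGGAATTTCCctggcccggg
NFKBIA (chr14:35404811-35404840, - strand): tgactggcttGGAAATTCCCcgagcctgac
TNFAIP3 (chr6:137867182-137867211, + strand): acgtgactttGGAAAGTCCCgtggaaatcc
The last 2 hold the motif in reverse. The AP-1 motif is shown for CXCL8, where the difference was positive, and for TNFAIP6, where it was negative.
CXCL8 (chr4:73740421-73740450, + strand): aggaagtgtgaTGACTCAggtttgccctga
TNFAIP6 (chr2:151357452-151357481, + strand): gccaatgcaaaTGAGTCAgaggatttgctt
A match is a run of letters and not a measured binding site. Among the 12 highest and 12 lowest ranked protein-coding genes, promoters were found for 5 and 9 genes. Of the 5, none held any of the motifs, and of the 9, AP-1 and the hypoxia core were held by 1 each and the CHR element by 2. None of the 6 promoters found for the ranked genes of opposite direction held any.

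Of 30 mitotic genes, 27 were lower in I79 by the rule and 1 was higher, against 6.04% and 7.01% of all genes. Their median difference was -0.93. The median change was -2.60 in I79 and -1.73 in I10, so that 29 genes were past 0.6 downward in both isolates and the difference was one of degree. MKI67, the proliferation antigen Ki-67, went from 195 to 21.9 CPM in I79, against 228 to 54.1 CPM for I10, a difference of -1.07 (-1.25 to -0.89). KIF20A, a kinesin of cytokinesis, went from 117 to 11 CPM in I79, against 114 to 25.4 CPM for I10. ASPM, a spindle-pole protein, had a difference of -1.19, and ANLN, an actin-binding protein of the cleavage furrow, had -1.0. The gene on the higher side was CCNA2, which had a transcript at 0 and 131 counts in I79 old and none in the other tables, so it was not read further. AURKA (-0.57) and TTK (-0.35) did not pass. The young tables differed by a median of -0.14 and the old ones by -1.06, while the replicates differed by -0.07 in WT and -0.04 in HMGB2 KD. In bulk RNA fewer dividing cells and less RNA per cell cannot be told apart.

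DNA replication genes did not share this pattern. Of 30 genes, 3 were lower and 1 (MCM4) higher, against 6.04% and 7.01% of all genes. The median difference was -0.06, from median changes of -1.94 in I79 and -1.90 in I10. The sign of that median turned to 0.16 with TPM-based counts and to 0.03 with scaling by totals. TK1, the thymidine kinase of S phase (-0.88), UHRF1, which maintains DNA methylation (-0.85), and RRM2, a subunit of ribonucleotide reductase (-0.63), were lower in I79. PCNA, the sliding clamp, was higher by 0.56, under the threshold. Among 17 G1 cyclins and CDK inhibitors, CDKN2A and CDKN2B were lower and CCND2 higher, with a list median of 0.09 that was at 0 (-0.00) from TPM-based counts. CDKN2A, which encodes p16 and ARF (chromosome 9, 21967751 to 21995300), stood at 9.37 CPM in I79 young and 8.61 CPM in I79 old, and at 9.65 CPM in I10 young and 18.8 CPM in I10 old. Only the I10 old table was high, and the interval ran from -1.5 to -0.67. Its neighbour CDKN2B, which encodes p15, went from 7.83 to 6.43 CPM in I79, against 9.13 to 12.7 CPM for I10, a difference of -0.75 (-1.22 to -0.29). CDKN1A, which encodes p21, reached 2359 CPM in I79 and 1606 CPM in I10 from 355 and 341 CPM, a difference of 0.50 (0.44 to 0.55) that did not pass 0.6. The replicate arithmetic was -0.23 for CDKN2A and -0.22 for CDKN2B.

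Among 27 targets of p53, 9 were higher in I79 and none lower, against 7.01% and 6.04% of all genes, and 18 did not pass the rule. A total of 25 had a positive sign, and the median difference was 0.45, from changes of 1.09 in I79 and 0.36 in I10. GDF15, a stress cytokine, went from 12.6 to 305 CPM in I79, against 10.6 to 73.7 CPM for I10, a difference of 1.79 (1.5 to 2.09). The antiproliferative gene BTG2 had a difference of 1.28, the DNA damage sensor DDB2 0.86 and TP53INP1, a p53 cofactor, 0.77. The young tables differed by a median of -0.05 over this list and the old ones by 0.39, while the replicates differed by -0.03 in WT and -0.01 in HMGB2 KD.

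Among 17 targets of NRF2, the regulator of the antioxidant response, 10 were lower in I79 and 1 was higher, against 6.04% and 7.01% of all genes. The median difference was -0.75, from changes of -0.40 in I79 and 0.29 in I10. AKR1C1, an aldo-keto reductase, went from 55.7 to 44.1 CPM in I79, against 40.9 to 108 CPM for I10, a difference of -1.74 (-1.92 to -1.55). NQO1, a quinone reductase, went from 561 to 129.6 CPM in I79, against 390.0 to 202 CPM for I10. TXNRD1, the cytosolic thioredoxin reductase, went from 829 to 634 CPM in I79, against 742 to 1134 CPM for I10. The exception was HMOX1, heme oxygenase, with a difference of 1.36, from 48.4 to 36.7 CPM in I79, against 46.9 to 13.8 CPM for I10. The replicates differed by a median of 0.09 in WT and 0.08 in HMGB2 KD, and 2 of the 17 genes passed in the replicate arithmetic.

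Matrix and contractile lists are given beside the shares of all genes, 7.01% higher and 6.04% lower. Of 24 collagens, 9 were lower and 2 higher (median -0.30, or -0.47 without those with a transcript at 0). COL8A1, a short-chain collagen, went from 180.3 to 87.3 CPM in I79, against 151 to 234 CPM for I10. COL4A1, of basement membranes, had a difference of -0.87, COL14A1 had -1.43 and the fibrillar COL3A1 -0.81. COL8A2, on the higher side, had a transcript at 0. The collagen chaperone SERPINH1 had a difference of -0.84. Of 18 contractile genes, 4 were lower and none higher (median -0.47). ACTA2, smooth muscle actin, stood at 525 CPM in I79 young and 269.8 CPM in I79 old, and at 379 CPM in I10 young and 505 CPM in I10 old. ACTG2, its close paralog, had a difference of -1.19, and reads of the pair may have been split by the estimates. The replicates differed in contractile genes as well, by medians of -0.35 in WT and -0.33 in HMGB2 KD, and in collagens by -0.14 and -0.35. Among the pericyte and smooth muscle markers, MCAM went from 136 to 80.7 CPM in I79, against 102 to 131 CPM for I10, a difference of -1.12, and RGS5 from 18.2 to 7.84 CPM, against 9.71 to 13.8 CPM, a difference of -1.72. CSPG4 went the other way, from 69.7 to 161 CPM in I79, against 83.0 to 125 CPM for I10. MYH11 went from 32.3 to 3.76 CPM in I79, against 28.5 to 2.71 CPM for I10. DES went from 5.77 to 1.14 CPM, against 5.01 to 1.27 CPM, and NOTCH3 from 58.5 to 103 CPM, against 54.6 to 129 CPM. The markers thus shared no direction. MCAM and RGS5 were named after their values were seen, and the part of these markers in the contractile list was not tested. Of 27 matrix glycoproteins and proteoglycans, 5 were higher and 3 lower (median -0.07, turning to 0.01 with TPM-based counts and 0.02 with totals). TNC, an adhesion-modulating glycoprotein, went from 1941 to 309 CPM in I79, against 1832 to 913 CPM for I10, and POSTN had a difference of -1.28. FBLN2 (1.89) and FBN2 (0.80) were higher.

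In TGF-beta and BMP signalling 9 of 25 genes were lower and 2 higher, against 6.04% and 7.01% of all genes (median -0.35, and -0.21 from TPM-based counts). The ligand genes BMP2 and INHBB (2.27) were higher, while the ligand BMP6 (-2.75) and the secreted antagonists GREM1 and FST were lower. GREM1 stood at 1639 and 1649.8 CPM in young and old I79, and at 1675 and 3616 CPM in young and old I10, so it rose in I10 alone. FST had a difference of -1.06. The direct BMP targets ID1 (-1.30), ID2 (-0.81), ID3 (-1.15) and ID4 (-1.32) were each lower in I79. Among 21 growth factor ligands, 2 were higher and 3 lower, against the same shares (median -0.02, turning to 0.10 with TPM-based counts and 0.07 with totals). ANGPT1 (-1.69) and HGF (-1.59) were lower, AREG (1.86) was higher, and GDNF, also higher, had a transcript at 0. HGF went from 196 to 153 CPM in I79, against 109 to 256 CPM for I10.

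The lists of this paragraph also stand beside 7.01% of all genes higher and 6.04% lower. Interferon response genes were higher in I79 in 8 of 16 cases, with none lower and a median of 0.64. IFI44 (1.97), OAS3 (1.28) and IRF9 (0.78) were at lower levels in old than in young I10, and IFI6 (1.04) went from 9.30 to 21.6 CPM in I79, against 7.31 to 8.23 CPM for I10. The replicates differed by 0.00 and 0.10, and 3 of the 14 genes measured there passed. In antigen presentation 2 of 14 genes were higher, HLA-B (0.73) and HLA-E (0.65), which both rose in each isolate (median 0.29). HLA genes share reads, and their estimates are uncertain. Of 11 serpins and plasminogen activators, 3 were higher, SERPING1, SERPINB2 and PLAU, and SERPINH1 was lower (median 0.42). Of 9 matrix metalloproteinases and TIMPs, 2 were higher, TIMP3 (1.00) and MMP19 (0.65), and MMP1 (-1.04) was lower (median 0.12).

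Metabolic, stress and housekeeping lists are given beside the shares of all genes, 7.01% higher and 6.04% lower. Of 27 cholesterol and fatty acid genes, 5 were lower and none higher (median -0.34), with SCD at -0.77. Of 63 respiratory chain subunits, 2 were lower, NDUFA4 (-0.68) and COX7B (-0.64), though 57 had a negative sign (median -0.27). The replicate arithmetic had a median of -0.21 for that list. Of 77 ribosomal proteins, 1 was higher, RPS27 (median 0.00). In 30 lysosomal proteins 4 were higher (median 0.14), led by CTSK, a collagen-degrading protease that went from 11.3 to 45.5 CPM in I79, against 15.2 to 20.8 CPM for I10. In 21 hypoxia genes 4 were higher (median 0.16), CA9, CA12 (1.16), PDK1 (0.71) and EGLN3, which had a transcript at 0. In 24 unfolded protein and integrated stress response genes 2 were higher and 1 was lower (median 0.09). Of 15 genes of the IGF axis, 4 were higher (median 0.05), among them IGFBP6 (1.07) and STC2 (0.92).

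Developmental lists were small. They are given beside the shares of all genes, 7.01% higher and 6.04% lower. Among genes averaging 25 to 100 counts 24.2% were isolate-dependent, so a few called members do not set a small list apart. Of 16 HOX genes, 3 were higher, HOXA2 (1.70), HOXB8 (1.51) and HOXB4 (0.78), and HOXA7 (-1.26) was lower (median 0.39, against -0.31 in the replicate arithmetic). Of 16 lung fibroblast transcription factors, 3 were higher, TBX3 (1.02), TWIST1 (1.11) and PRRX2 (0.63), with a median of 0.15. In 14 WNT ligands and antagonists, WNT2 (1.42) and TCF7 (1.12) were higher (median 0.01). None of 6 Notch genes passed (median 0.17). In 29 immediate early and MAPK feedback genes 3 were higher and 3 lower (median 0.01), with KLF4 at 1.10 and DUSP6 at -0.83. In 14 imprinted genes 3 were higher and 2 lower, led by PEG10 (1.08). Their median was -0.07, which turned to 0.07 with TPM-based counts, 0.03 with totals and 0.15 without GRB10, which had a transcript at 0. Of 3 metallothioneins, 2 were higher (median 0.72), while the replicate arithmetic had a median of -0.74 and 2 of the 3 passed there. Of 7 pregnancy-specific glycoproteins 1 was higher (median 0.58, or -0.03 without PSG1 and PSG2, which had a transcript at 0), and of 9 replication-dependent histones 2 were lower (median -0.37), H1-2 (-1.55) and H2AC6, which had a transcript at 0.

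**Figure D5:**
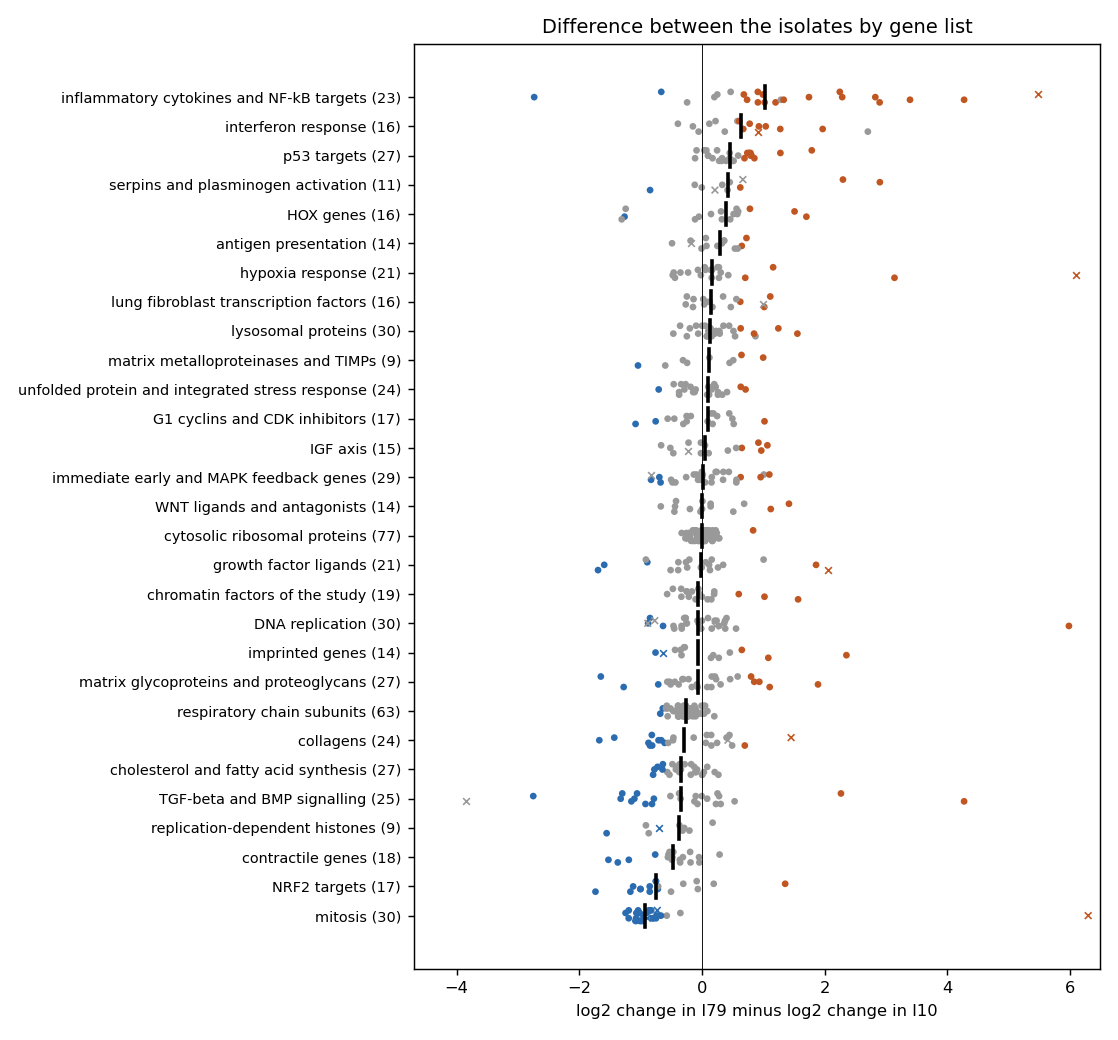
Each point is a gene of a list (number tested in brackets), with the difference (log2 change in I79 minus log2 change in I10) on the x axis; orange and blue mark isolate-dependent genes, crosses genes with a transcript at 0, and black bars the list medians, for lists with at least 9 genes. Medians run from -0.93 in mitosis to 1.02 in the inflammatory list; CCNA2 (7.72) is drawn at the right edge.

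Of 19 chromatin and senescence factors examined in the study, 3 were higher and none lower by the rule, against 7.01% and 6.04% of all genes. Their median was -0.06, turning to 0.03 with scaling by totals. HMGB2 went from 122 to 38.3 CPM in I79, against 142 to 46.3 CPM for I10, a difference of -0.06 (-0.22 to 0.11). HMGB1 had -0.16, HMGA1 -0.33, the lamins LMNB1 -0.57, LMNB2 -0.24 and LMNA -0.21, and CTCF 0.20. Polycomb subunits EZH2 and SUZ12 had -0.47 and 0.20, the methyltransferases DNMT1 and SUV39H1 -0.25 and -0.04, and the cohesin subunits SMC1A and RAD21 0.00 and 0.15. CBX5 had 0.09, KDM6B -0.10 and PTX3 -0.34. KDM6B had 0.41 from TPM-based counts and CBX5 -0.11, so their signs depended on the quantification. HDAC9, a class IIa histone deacetylase, reached 19.8 CPM in I79 old and 13.1 CPM in I10 old from 8 and 20 counts, with a difference of 1.57 (0.39 to 2.75), which was 0.58 and under the threshold from TPM-based counts. CCND2, a D-type cyclin, had 1.02 (0.12 to 1.92), and HMGA2 lay at the threshold with 0.60 (0.48 to 0.72), and was under it with median-of-ratios size factors (0.59) and TPM-based counts (0.55). LMNB1 was past it from TPM-based counts (-0.65). For HMGA2 the old tables were alike (0.04), and the young tables differed by -0.56.

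Of the 75 genes that moved in opposite directions, 20 had a transcript at 0. In the ranking without such genes and with at least 100 counts, 11 genes rose in I79 and fell in I10 and 8 did the reverse. The first group held C3, TXNIP, GPC4, APOE, CXCL8, PTGIS, FBLN2, PTGS2, SLITRK6, AREG and PRKG2. The second held TNFRSF11B, SOX9, COL8A1, ANGPT1, PAQR5, NALCN, TOX and CHEK2. SOX9, a chondrogenic transcription factor, went from 26.4 to 13.4 CPM in I79, against 12.8 to 28.5 CPM for I10, so its young and old tables both differed and in opposite directions. CHEK2, a checkpoint kinase, went from 4.49 to 2.78 CPM in I79, against 4.70 to 10.4 CPM for I10, a difference of -1.84, or -1.21 from TPM-based counts. AREG, an EGF receptor ligand, went from 6.42 to 10.8 CPM in I79, against 4.23 to 1.93 CPM for I10.

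The difference was spread over the genome. Over 23 chromosomes with at least 50 genes, the median difference lay between -0.04 and 0.05, and the share of isolate-dependent genes between 9.69% and 16.5%. The share fell with depth, from 24.2% of genes with a mean of 25 to 100 counts to 12.7% in the next range and 6.5% among the most deeply counted genes. Across genes the difference correlated with mean counts with a Spearman coefficient of -0.14, with transcript length of 0.08 and with GC content of 0.03, which describe genes that share the same 4 libraries.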

How the data were processed

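The authors sequenced poly(A)-selected RNA (TruSeq libraries). For the old and young groups they deposited 1 table each, with estimated counts of reads and TPM (transcripts scaled for length and depth) per transcript. The columns are those Salmon writes, though the tool is not given in the sources used here, while the submitters' processing notes name STAR 2.6.0c, featureCounts, DESeq2, deepTools and GRCh37. For WT and HMGB2 KD they deposited raw counts per gene and library, used here only for replicate spread (33561766 to 41168932 counts). Rows that name no gene took 16.9% to 18.0% and were left out. The ICM libraries were not used.

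Estimated counts were summed per gene through GENCODE v44 lifted to GRCh37, which matched 97.7% of transcript IDs and 97.2% to 97.4% of reads, rounded, and scaled by TMM (edgeR 4.0.16, R 4.3.3). With 0.5 counts added, log2 ratios were taken for genes that averaged 25 counts or more. The 95% interval is a log-scale approximation from the 4 counts. With 1 table per group there are 0 residual degrees of freedom and no test. The steps were tested on simulated data. TPM served only for an alternative.

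Genes were named by rule: the 12 highest and 12 lowest protein-coding genes by the interval's nearer bound, 6 and 6 of opposite direction, the chromatin factors, G1 genes past 0.6, and up to 4 members of each of 32 lists. Members and lists were chosen with earlier results of these data known. Where more members of a list are named than these rules give, the further ones were named with their values known. The ranking without genes that had a transcript at 0 was added after seeing the data. Chromosome arms were not analysed here. Reads carry no molecular identifiers.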

Additional observations from a re-analysis of the deposited data

Results flagged for a closer look

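The isolates changed in opposite directions in 12 ranked protein-coding genes, which is why they are listed; the difference was not tested, as each group had 1 table. On the higher side the difference was 9.69 for PEDS1-UBE2V1, 7.92 for ENSG00000260537, 7.71 for LMBRD1, 7.62 for CFAP298-TCP10L, 5.96 for GJC1 and 4.71 for C3. On the lower side it was -9.03 for ENSG00000267303, -8.79 for EFNB2, -8.22 for H4C15, -5.16 for MAGED4, -4.42 for PPARA and -3.84 for ENSG00000284989. In 8 of the 12 a transcript was at 0 in a table. The others were C3, LMBRD1, CFAP298-TCP10L and ENSG00000284989. Of these, LMBRD1 had at most 47 counts in a table, against a mean of 1399 in the WT and HMGB2 KD libraries, and was set aside. CFAP298-TCP10L had at most 49 counts in a table. Its replicate arithmetic in the WT and HMGB2 KD libraries was 6.35, at a mean of 5.25 counts. Where a gene had 0 counts in a table, as PEDS1-UBE2V1, ENSG00000260537, LMBRD1, CFAP298-TCP10L, ENSG00000267303, EFNB2 and H4C15 did, the value depends on the counts added and is no bound. C3 had at least 70 counts in each table. With counts from TPM the difference was 2.58 for GJC1 and -1.94 for PPARA.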

How the results depend on the processing

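The 1707 isolate-dependent genes became 1835 with scaling by library totals (1227 higher and 608 lower in I79), 1699 with median-of-ratios size factors, 1640 with 2 counts added, 2260 with counts from TPM and 1533 without genes that had a transcript at 0, the last chosen after seeing the data. With a mean of at least 100 counts there were 570 genes higher in I79, 574 lower and 26 of opposite direction. The latter numbered 236 with a mean of at least 5 counts and 313 with no filter, against 75. A threshold of 1 left 794 genes (454 higher and 340 lower), and a whole interval past 0.6 left 639 (329 and 310). No named gene called by the rule changed sign, while the excess of genes on the higher side was lost with a mean of at least 100 counts. Of 90 named genes, 17 moved by more than their interval with counts from TPM and 4 with library totals, HDAC9 and HMGA2 fell under the threshold of 0.6 with counts from TPM (0.58 and 0.55), and 0 of the 80 with a finite exact conditional estimate had an interval on another side of 0. No paired analysis was possible because each isolate has 1 table per state. Leaving out a replicate could not be run for the same reason. Depth limits genes of 25 to 100 counts most, where the median half-width of the interval was 0.88, against 0.13 in the most deeply counted genes. Chromosome arms were not run.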
